A study of Homo sapiens with 9 samples.

Results

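Messenger RNA of 10 enzyme genes was followed across 9 expression arrays of a human hepatoma line. The enzymes make serine, asparagine, proline, folate-bound single carbons and, in mitochondria, phosphoenolpyruvate. The genes were PHGDH, PSAT1, PSPH, SHMT2, MTHFD2, ALDH1L2, ASNS, ALDH18A1, PYCR1 and PCK2, taken by gene symbol. They are 10 of 18132 genes with at least 1 probe set assigned to a single symbol, and they had 37 of the 49395 probe sets. The cells are named R-HepG2 in the growth and treatment protocols, the resistant form of HepG2, and all were kept without serum overnight. For the next 4 h they received plain medium, insulin at 40 ug/ml, or biomineralized insulin holding the same 40 ug/ml of insulin, with 3 arrays in each of the 3 groups. Tags for the line differ, with R-HepG2 on the medium arrays and HepG2 on those of both treatments, and if the tags are right the form of the line and the treatment cannot be told apart. No group received the mineral alone. Whether the 3 arrays of a group stand for separate cultures is not stated in the labels. The p-values therefore describe spread among these arrays, and it may be technical.

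PHGDH, PSAT1 and PSPH act in order to turn a glycolytic intermediate into serine, and SHMT2 passes a carbon of serine to folate inside mitochondria, where MTHFD2 and ALDH1L2 oxidise it further. ASNS makes asparagine from aspartate, ALDH18A1 opens and PYCR1 closes the route from glutamate to proline, and PCK2 turns oxaloacetate into phosphoenolpyruvate. Several of these genes, ASNS and PSAT1 among them, are textbook targets of ATF4, a transcription factor that cells make more of when amino acids are short or the endoplasmic reticulum is stressed.

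Values are log2 expression values, so a difference of 1 is a 2-fold change, and levels of different genes were not compared because probe sets bind with different strength. A gene was represented by its brightest probe set and was tested if that lay above the dimmest 40% of probe sets, a limit of 4.74 log2. That left 12240 genes, 9 of the 10 enzymes among them, and ALDH1L2 was too dim. A gene was called changed when its Benjamini-Hochberg adjusted p in the limma model over all 12240 genes was under 0.05. Array medians lay between 5.46 and 5.50 log2, and arrays of one group correlated at 0.998. Of 14 liver and hepatoma markers with a probe set, 5 were above the brightness limit (APOA1, TTR, TF, AHSG and FOXA2), and the defining markers ALB, AFP, APOB and SERPINA1 read 3.29, 3.00, 2.88 and 3.83 in medium, all below it. Of 6 lung markers, 4 were above it, NKX2-1 at 6.14 in medium, 6.36 in insulin and 6.73 in biomineralized insulin among them. SFTPA1 and SCGB1A1, at 2.8 and 3.2 in medium, were below it. Other lists passed as well, with 3 of 3 fibroblast, 2 of 2 squamous, 2 of 2 endothelium, 1 of 2 kidney and 0 of 2 blood markers above it. Lying above the limit therefore does not name a cell type. The summed log2 level of the 14 liver markers was 57.4 in medium, 57.6 in insulin and 57.7 in biomineralized insulin. That of the 6 lung markers was 29.5, 29.8 and 30.7. With 9 of these liver markers and 2 of these lung markers below the limit, the sums hold background and do not measure the share of a cell type. The part of these markers in the results was not tested. In bulk RNA, fewer cells of a type and less RNA per cell cannot be told apart.

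In biomineralized insulin, 8 of the 9 tested enzymes fell against medium and ALDH18A1 rose, though its rise did not hold with arrays centred on spike-in controls (-0.08, adjusted p = 0.52). Over all tested genes, 25.2% were called lower and 25.7% higher in that comparison. A fall of at least 2-fold was called for 5 enzymes (PCK2, ASNS, PHGDH, PSAT1 and MTHFD2) and for 1.16% of all tested genes. The median change of the 9 enzymes was -1.02 and that of all tested genes 0.02. In soluble insulin, the falls were small: ASNS, PCK2, PYCR1 and PHGDH were called lower than in medium and none was called higher, with 1.2% of all tested genes called lower and 1.25% higher. Both comparisons use the same medium arrays.

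**Figure D1:**
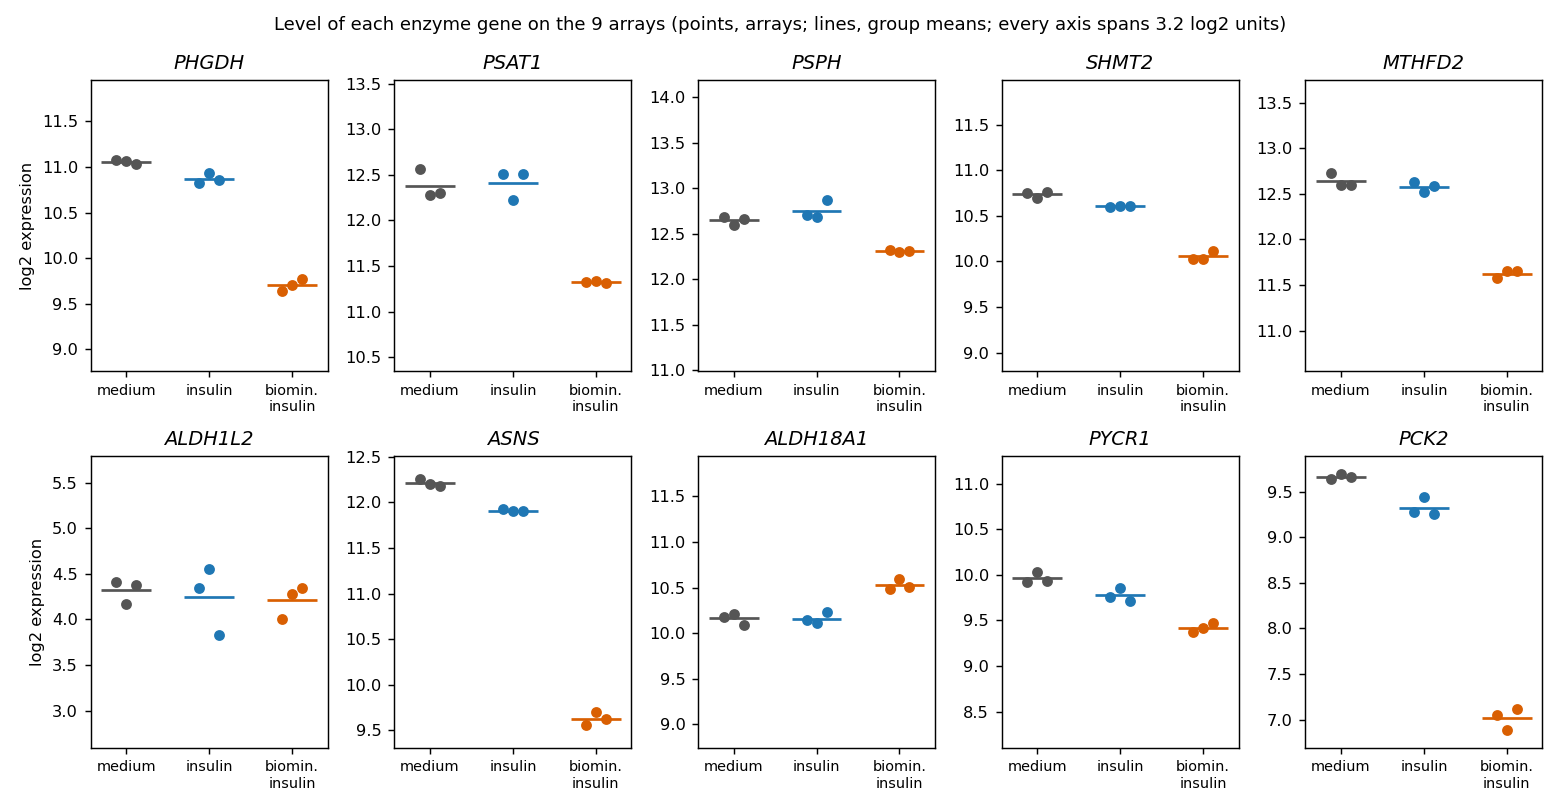
Log2 expression of the 10 enzyme genes on each of the 9 arrays, with 1 panel per gene, points for arrays and bars for group means. PCK2 and ASNS show the widest gaps, with all 3 biomineralized insulin arrays at or below 7.12 and 9.70, while ALDH18A1 lies higher in that group and ALDH1L2 overlaps across groups below the brightness limit.

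The amide enzyme ASNS, which makes asparagine, read 12.26, 12.20 and 12.18 log2 on the medium arrays. The insulin arrays read 11.92, 11.90 and 11.90. The biomineralized insulin arrays read 9.56, 9.70 and 9.63. The 3 groups did not overlap, with medium highest and biomineralized insulin lowest. ASNS fell by 2.59 ± 0.04 (SE, n = 3 per group) from medium to biomineralized insulin, a 6.0-fold drop (adjusted p = 1.6e-17), and the change from insulin to biomineralized insulin was -2.28 ± 0.04 (adjusted p = 1.1e-16). It fell by 0.31 ± 0.04 from medium to insulin (adjusted p = 0.0019), and the direction was lower on every one of its 4 probe sets, between -0.25 and -0.40. In biomineralized insulin against medium those 4 probe sets changed by between -2.43 and -2.72.

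The upstream region of ASNS is shown because it carries the composite element through which amino acid shortage is known to act on this gene. RefSeq (GRCh38.p14) places the 150 bases before the first of its 2 annotated starts at chr7:97872409-97872558 on the minus strand. Capitals mark the match to TGATGNAA, the letters of a CHOP-ATF4 composite element, from position -68 to -61 on the gene's own strand, with -1 the base before the start.
ASNS: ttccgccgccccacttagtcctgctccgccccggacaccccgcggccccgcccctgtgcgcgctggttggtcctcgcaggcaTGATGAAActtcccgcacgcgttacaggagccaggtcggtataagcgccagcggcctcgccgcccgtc
Across windows of 300 bases, from 250 before to 50 after a start, 3.62% of 35116 windows held TGATGNAA on either strand. The window at the other ASNS start held none, nor did those of PHGDH, PSAT1, MTHFD2, ALDH18A1 and PCK2. These are 6 of the 10 enzymes, and PSPH, SHMT2, ALDH1L2 and PYCR1 were not searched.

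PCK2 had medium values of 9.64, 9.70 and 9.66 log2. Insulin gave 9.28, 9.44 and 9.26, and biomineralized insulin 7.05, 6.89 and 7.12. Again no values overlapped between groups, and the order of groups was that of ASNS. PCK2 fell by 2.65 ± 0.06 between medium and biomineralized insulin, a 6.26-fold drop (adjusted p = 6.3e-15), and the change between insulin and biomineralized insulin was -2.31 ± 0.06 (adjusted p = 5.1e-14). Ordered from the largest fall over the 12240 tested genes, PCK2 stood in place 8 and ASNS in place 10 in biomineralized insulin against medium. From medium to insulin PCK2 fell by 0.34 ± 0.06 (adjusted p = 0.009). Leaving out medium replicate 2 ended that call (adjusted p = 0.07), as did leaving out insulin replicate 3 (adjusted p = 0.071), within a range of 0.0023 to 0.81 over the alternatives. The less bright of its 2 probe sets changed by -2.03 in biomineralized insulin and -0.39 in insulin against medium, both called.

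PHGDH, which takes the first step of serine synthesis, had 1 probe set. On the medium arrays it read 11.07, 11.06 and 11.03 log2. In insulin it read 10.82, 10.93 and 10.86, and in biomineralized insulin 9.64, 9.71 and 9.77. The groups did not overlap. PHGDH fell by 1.35 ± 0.04 from medium to biomineralized insulin, 2.54-fold (adjusted p = 1.2e-13), and by 1.17 ± 0.04 from insulin to biomineralized insulin (adjusted p = 9.5e-13). The fall from medium to insulin was 0.18 ± 0.04, from a mean of 11.05 to 10.87 (adjusted p = 0.025). It missed the threshold without medium replicate 1 (adjusted p = 0.071), medium replicate 2 (0.11), insulin replicate 1 (0.11) or insulin replicate 3 (0.13), and over all alternatives its adjusted p ranged from 0.0085 to 1.

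PSAT1, the transaminase of the second step, read 12.57, 12.28 and 12.30 log2 in medium. The insulin values were 12.51, 12.23 and 12.51, overlapping those of medium. In biomineralized insulin they were 11.33, 11.34 and 11.32, below every other array. PSAT1 fell by 1.06 ± 0.07 against medium, 2.08-fold (adjusted p = 3.4e-09), and by 1.09 ± 0.07 against insulin (adjusted p = 3.3e-09). Insulin against medium gave 0.03 ± 0.07 with a 95% interval of -0.12 to 0.18 (adjusted p = 0.88). The 8 PSAT1 probe sets did not behave alike in insulin, where their changes ran from -0.48 to 0.03, with 6 below 0 and 4 called lower, so no direction is given for PSAT1 there. All 8 fell in biomineralized insulin, by between -1.06 and -2.13, and the smallest of these changes was that of the brightest probe set.

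PSPH, which frees serine from its phosphate in the last step, read 12.69, 12.59 and 12.66 log2 in medium and 12.70, 12.69 and 12.88 in insulin. In biomineralized insulin it read 12.32, 12.30 and 12.31, below both. The fall of 0.33 ± 0.04 against medium was 1.26-fold (adjusted p = 3e-06), and that against insulin was 0.44 (adjusted p = 1.7e-07). Its 3 probe sets fell by unequal amounts, with a change of -0.33 for the brightest, -1.59 for that with a mean of 11.65 and -0.50 for that with a mean of 9.90. All 3 carry the name endings of probe sets that can bind further transcripts, and near-identical pseudogene copies of PSPH exist, so the size of its fall is uncertain. Insulin against medium gave 0.11 ± 0.04 (adjusted p = 0.19), and none of the 3 probe sets was called.

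**Figure D2:**
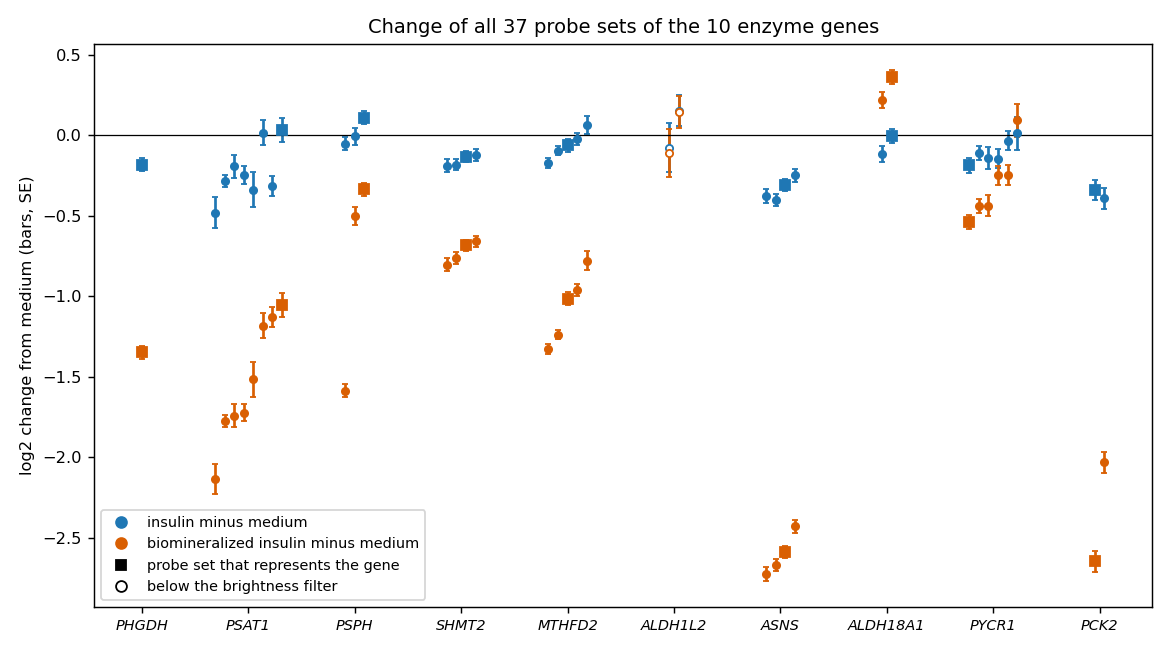
Log2 changes of the 37 probe sets of the 10 enzymes, a point per probe set with its standard error, against medium for insulin (blue) and biomineralized insulin (orange). The 4 ASNS probe sets lie close together, while those of PSAT1 run from -1.06 to -2.13 and those of PSPH from -0.33 to -1.59 in biomineralized insulin against medium.

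SHMT2, the mitochondrial serine hydroxymethyltransferase, read 10.75, 10.70 and 10.76 log2 in medium. Insulin arrays read 10.60, 10.61 and 10.61, and biomineralized insulin arrays 10.02, 10.03 and 10.11. No group overlapped another. SHMT2 fell by 0.68 ± 0.04 from medium to biomineralized insulin (adjusted p = 1.4e-10) and by 0.55 from insulin to biomineralized insulin (adjusted p = 2.6e-09), and its 4 probe sets gave -0.66 to -0.80 against medium. The change of -0.13 ± 0.04 in insulin against medium did not pass the test (adjusted p = 0.06), although 2 of its 4 probe sets were called lower.

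MTHFD2, the mitochondrial methylenetetrahydrofolate dehydrogenase, read 12.73, 12.60 and 12.60 log2 in medium and 12.63, 12.52 and 12.59 in insulin, which overlapped. Biomineralized insulin gave 11.57, 11.65 and 11.65. The fall against medium was 1.02 ± 0.04, or 2.02-fold (adjusted p = 3.1e-12), and against insulin 0.95 (adjusted p = 9.5e-12). Its 5 probe sets all fell, by between -0.78 and -1.33 against medium. Insulin against medium gave -0.06 ± 0.04, with a 95% interval of -0.14 to 0.02 (adjusted p = 0.47). ALDH1L2, the mitochondrial formyltetrahydrofolate dehydrogenase, read 4.41, 4.17 and 4.38 in medium, 4.34, 4.55 and 3.83 in insulin and 4.00, 4.28 and 4.34 in biomineralized insulin. These ranges overlap, and both of its probe sets lay below the brightness limit. In a fit without that limit they changed by -0.11 and 0.15 in biomineralized insulin against medium (adjusted p = 0.66 and 0.32), too dim to show whether ALDH1L2 changed.

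The proline enzymes differed in direction. PYCR1, the last enzyme of the route, read 9.92, 10.03 and 9.93 log2 in medium, 9.76, 9.85 and 9.72 in insulin and 9.38, 9.42 and 9.47 in biomineralized insulin. The groups did not overlap, with medium highest. PYCR1 fell by 0.54 ± 0.05 against medium in biomineralized insulin (adjusted p = 5.1e-08) and by 0.35 against insulin (adjusted p = 8.3e-06). Of its 6 probe sets, 5 were called lower in biomineralized insulin against medium, and the dimmest, with a mean of 5.01, changed by 0.09 (adjusted p = 0.48). The fall of 0.19 ± 0.05 in insulin against medium (adjusted p = 0.042) was lost under 16 of 22 alternatives, among them leaving out any single array except insulin replicate 2, with adjusted p from 0.0094 to 1. In the fit over single probe sets none of the 6 was called there.

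ALDH18A1, the first enzyme of the route, read 10.18, 10.21 and 10.09 log2 in medium and 10.14, 10.11 and 10.23 in insulin. Biomineralized insulin gave 10.49, 10.59 and 10.50, above every other array. The rise was 0.36 ± 0.04 against medium, or 1.29-fold (adjusted p = 2.6e-06), and 0.37 against insulin (adjusted p = 3.1e-06), and the other probe set rose by 0.22 against medium. Insulin against medium gave -0.0022 ± 0.04, with a 95% interval of -0.09 to 0.09 (adjusted p = 0.99). The rise depended on how arrays were scaled. The 12 poly-A spike-in probe sets, which read RNA added during labelling, averaged 7.31, 7.33 and 7.46 log2 in medium, 7.42, 7.32 and 7.43 in insulin and 7.68, 8.0 and 7.73 in biomineralized insulin, 0.44 higher than in medium (exact permutation test, two-sided p = 0.1, the smallest that 3 against 3 arrays allow). With arrays centred on these spike-ins, the median of all genes shifted to -0.42 in biomineralized insulin against medium, and ALDH18A1 changed by -0.08 (adjusted p = 0.52). Under that scaling the other 8 tested enzymes were called lower, from -0.78 for PSPH to -3.09 for PCK2. So were 9347 of the 12240 tested genes. The scaling takes the same amount from every gene of an array, so these falls could only grow in size.

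The upstream region of ALDH18A1 is shown as that of the one enzyme that rose. The 150 bases before its annotated start lie at chr10:95656712-95656861 on the minus strand (RefSeq, GRCh38.p14), and capitals mark CACGTG, an E-box that reads alike on both strands, from position -136 to -131.
ALDH18A1: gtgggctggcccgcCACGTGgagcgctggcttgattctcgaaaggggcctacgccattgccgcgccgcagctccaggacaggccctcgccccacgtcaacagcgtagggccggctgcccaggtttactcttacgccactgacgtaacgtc
CACGTG was present in 7.26% of the 35116 windows of 300 bases and in none of the windows of PHGDH, PSAT1, MTHFD2, ASNS and PCK2.

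**Figure D3:**
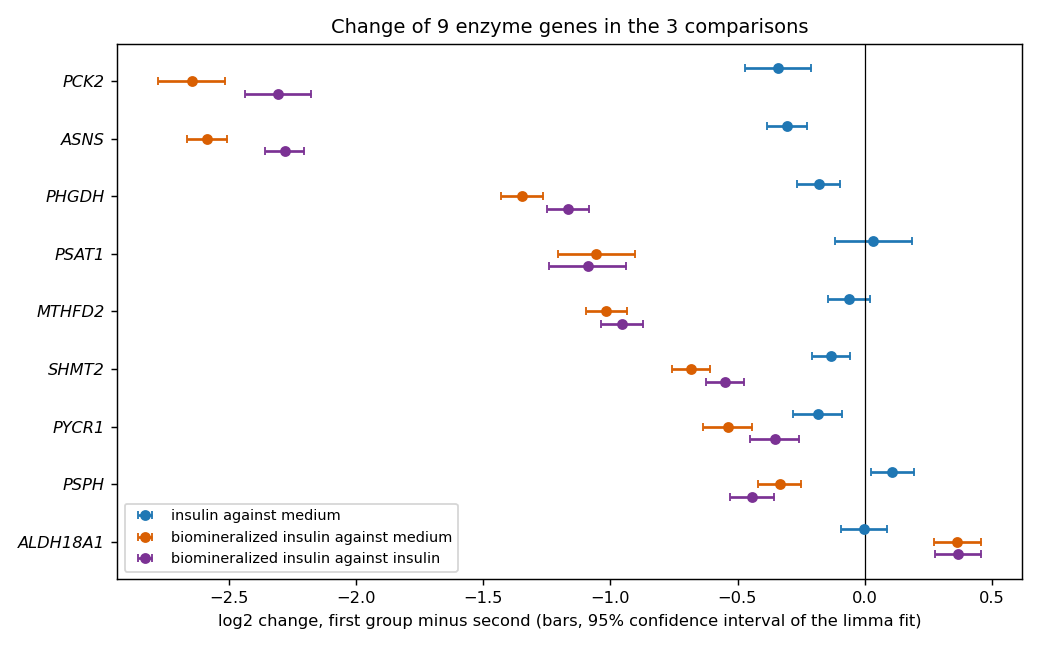
Log2 change of the 9 tested enzymes in the 3 comparisons, points with 95% intervals from the limma model. Points for PCK2 and ASNS lie beyond -2 in both comparisons with biomineralized insulin, and ALDH18A1 alone lies above 0 there, a rise that turned to -0.08 against medium with arrays centred on the spike-ins.

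Biomineralized insulin against insulin compares equal doses of the hormone. In it 8 enzymes were called lower and 1 higher, where 23.3% of all tested genes were called lower and 21.1% higher, and 4 (PCK2, ASNS, PHGDH and PSAT1) were at least 2-fold lower, as were 0.956% of all tested genes. The median change of the enzymes was -0.95. The 8 lower calls remained when any single array was left out, as they did against medium. Counted as single probe sets, 31 of the 35 above the brightness limit were called lower and 2 higher (20.1% and 18.5% of all tested probe sets). Against medium 32 were called lower and 2 higher, with 23.8% and 22.1% of all tested probe sets. In insulin against medium 14 probe sets were called, all lower, with 0.724% of all tested probe sets called lower and 0.473% higher. Probe sets of 1 gene share its transcript and are not separate evidence.

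For insulin against medium the count of called enzymes rested on single arrays. It was 4 on all arrays. Leaving out medium replicate 1 or insulin replicate 1 left 2 called, ASNS and PCK2, and leaving out medium replicate 2 or insulin replicate 3 left 1, ASNS. With arrays centred on the spike-ins it was 0, and with each gene's most variable probe set it was 6. Without overlap between the groups, 5 enzymes were lower in insulin (PHGDH, SHMT2, ASNS, PYCR1 and PCK2), with 9.1% of all tested genes lower in that way. The 3'-to-5' difference of the actin control probe sets was 0.17 higher in insulin than in medium (exact permutation test, two-sided p = 0.1), and that of GAPDH 0.0042 higher (exact p = 0.8). The part of RNA quality in the insulin result was not tested.

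Several enzymes have a relative in the cytosol or a second gene for the same step, and for 3 such pairs both genes were bright enough to test. SHMT1, the cytosolic partner of SHMT2, read 9.43, 9.39 and 9.42 log2 in medium, 9.32, 9.37 and 9.42 in insulin and 9.19, 9.28 and 9.16 in biomineralized insulin. In biomineralized insulin against medium the change of SHMT2 minus that of SHMT1 was -0.48, although 1 of 5 SHMT1 probe sets changed by 0.14. MTHFD1, the cytosolic folate enzyme, read 10.44, 10.47 and 10.36 in medium, 10.30, 10.26 and 10.27 in insulin and 10.10, 10.17 and 10.23 in biomineralized insulin. The difference of changes was -0.76 for MTHFD2 minus MTHFD1 and -0.60 for PYCR1 minus PYCR3, whose own change was 0.06. These values are of the brightest probe set of each gene. Of the 4 PYCR3 probe sets 1 changed by -0.22, and those of PYCR1 ran from 0.09 to -0.54, so the size of that difference is uncertain. For each of these 3 pairs the per-array differences of the groups did not overlap in biomineralized insulin against medium (exact permutation test, two-sided p = 0.1, adjusted p = 0.112 over 9 tests, with 0.1 the smallest p possible). Leaving out single arrays kept them between -0.53 and -0.43 for SHMT2, between -0.81 and -0.73 for MTHFD2 and between -0.63 and -0.53 for PYCR1. PCK1, the cytosolic relative of PCK2, was below the brightness limit, at 4.15, 4.13 and 4.27 in medium and 4.25, 4.12 and 3.79 in biomineralized insulin.

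**Figure D4:**
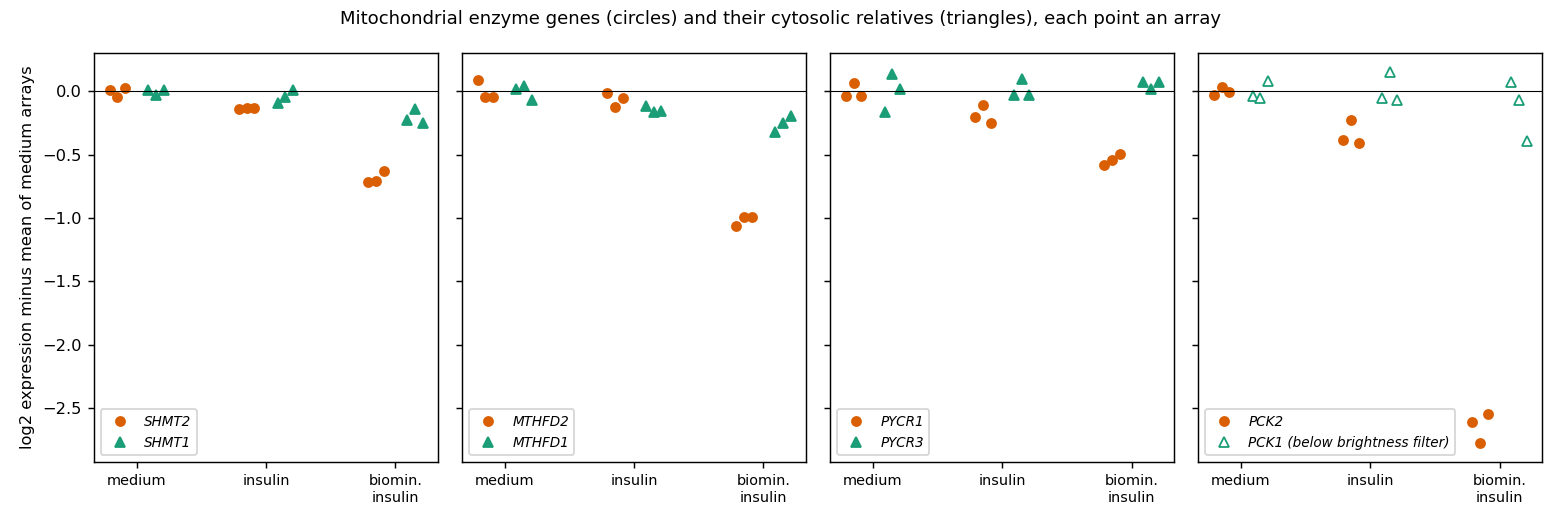
Log2 values on the 9 arrays for SHMT2, MTHFD2, PYCR1 and PCK2 (circles) beside their relatives SHMT1, MTHFD1, PYCR3 and PCK1 (triangles, open where below the brightness limit), shown as differences from the mean of the medium arrays. In biomineralized insulin the first 3 enzymes lie lower than their relatives, by 0.48, 0.76 and 0.60 log2 on average for the brightest probe set of each gene.

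Of 62 other genes of the same pathways listed for this comparison, 45 were tested. In biomineralized insulin against medium 16 fell, 11 rose and 18 did not pass the test, with a median of -0.03, while 25.2% of all tested genes were called lower and 25.7% higher. Rises among the 45 were about as frequent as among all tested genes. Of the 23 genes for serine, glycine, folate and methionine, 7 fell and 5 rose. Among the 10 for asparagine, aspartate, glutamate and arginine 6 fell and 3 rose, among 6 for proline 1 fell and 2 rose, and among 6 for phosphoenolpyruvate and pyruvate 2 fell and 1 rose. The largest fall was that of CTH, which makes cysteine from cystathionine, from 10.51, 10.49 and 10.44 log2 in medium to 8.20, 8.27 and 8.31 in biomineralized insulin, a change of -2.22 ± 0.04 (adjusted p = 5e-16). ARG2, the mitochondrial arginase, fell by 1.51 ± 0.06 (adjusted p = 6.2e-12). ASS1, which joins citrulline and aspartate, fell by 1.06 ± 0.03 (adjusted p = 3.2e-13). GOT1, the cytosolic aspartate aminotransferase, fell by 0.92 ± 0.05 (adjusted p = 4.9e-10). These 4 falls were larger with arrays centred on the spike-ins. That scaling lowers every gene in biomineralized insulin against medium, so it could not have made a fall smaller.

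The largest rise was that of GLUL, glutamine synthetase, from 7.45, 7.33 and 7.25 log2 in medium to 8.07, 8.09 and 8.08 in biomineralized insulin, by 0.73 ± 0.06 (adjusted p = 3.7e-08), and 0.29 with spike-in centring (adjusted p = 0.025). GCSH of the glycine cleavage system rose by 0.67 ± 0.09 (adjusted p = 1.5e-05), MTHFD1L, the mitochondrial formate-producing enzyme, by 0.50 ± 0.05 (adjusted p = 5.6e-07), and OAT, ornithine aminotransferase, by 0.40 ± 0.05 (adjusted p = 2.3e-06). With spike-in centring these became 0.23 (adjusted p = 0.077), 0.06 (0.62) and -0.04 (0.74). MTHFD1L acts just after MTHFD2 in mitochondria, and its 4 probe sets changed by at least 0.29 while the 5 of MTHFD2 fell. PKM, pyruvate kinase, rose by 0.63 ± 0.05 (adjusted p = 3.5e-08), but 1 of its probe sets changed by only 0.06. PKM missed the threshold with spike-in centring (0.19, adjusted p = 0.11) and without probe sets of shared-target endings (0.13, adjusted p = 0.1).

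**Figure D5:**
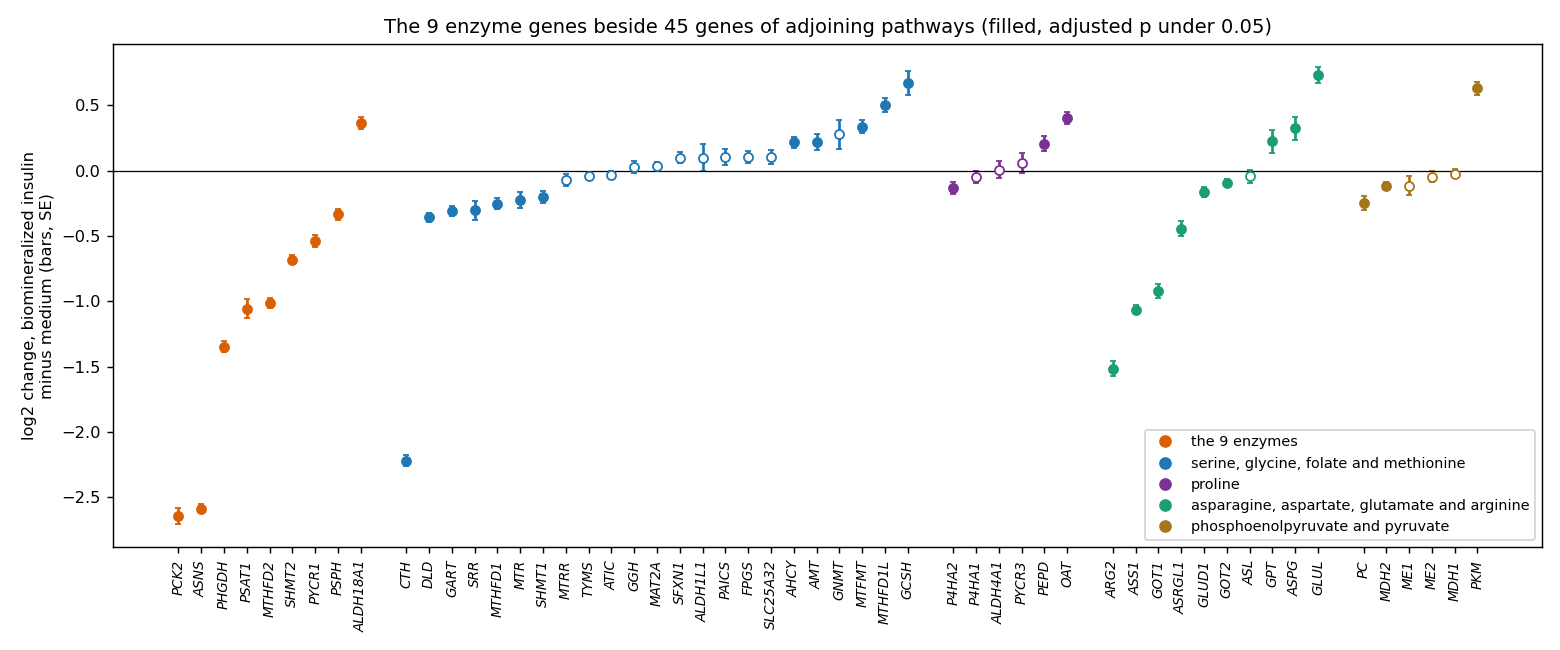
Log2 change of the 9 tested enzymes and the 45 other tested pathway genes in biomineralized insulin against medium, a point per gene with its standard error, filled where the adjusted p was under 0.05. The 45 genes spread to both sides of 0, with CTH at -2.22 and GLUL at 0.73.

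Against soluble insulin, 14 of the 45 fell in biomineralized insulin and 10 rose, with 23.3% of all tested genes called lower and 21.1% higher. CTH fell by 2.04 ± 0.04 (adjusted p = 1.6e-15), ARG2 by 1.11 and ASS1 by 0.90. In insulin against medium 6 of the 45 fell and 1 rose, with 1.2% of all tested genes called lower and 1.25% higher. ARG2 fell by 0.41 ± 0.06 (adjusted p = 0.0031) and GOT1 by 0.32 ± 0.05 (adjusted p = 0.0053), and both were called whichever array was left out. ARG2 missed the threshold with its most variable probe set (adjusted p = 0.061) and with spike-in centring (0.61), and GOT1 without the intensity trend (0.053) and with spike-in centring (0.99). CTH fell by 0.18 ± 0.04 (adjusted p = 0.033), and that call was lost without medium replicate 1 or 2 or any 1 insulin array, with adjusted p between 0.057 and 0.13. It was also lost with median centring (0.053), without the intensity trend (0.12) and with spike-in centring (1). When each gene's most variable probe set stood for it, the call was lost as well (0.057). CTH had 1 probe set above the limit, so its own change stayed at -0.18 there.

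Genes with the most similar pattern over the 9 arrays were found by the root mean square difference of log2 values after centring each gene on its own mean. For PCK2 the closest was NUPR1 at 0.06 log2, then TRIB3 at 0.10 and STC2 at 0.12. For ASNS they were IL1A at 0.09, TRIB3 at 0.10 and NUPR1 at 0.11. PHGDH was closest to GRB10 (0.03), PSAT1 to AHR (0.07), SHMT2 to ASCC1 (0.03), MTHFD2 to JMY (0.04), PSPH to YEATS4 (0.04), PYCR1 to ECI1 (0.03) and ALDH18A1 to PIK3R4 (0.03). Among the enzymes themselves the smallest of 36 differences was 0.09, between PSAT1 and MTHFD2, and the largest 1.35, between ALDH18A1 and PCK2. The measure compares sizes of change as well as direction, and arrays, not independent conditions, are its points.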

How the data were processed

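The 9 arrays are one-colour Affymetrix arrays read after 3' in vitro transcription labelling, per the labels' protocols, so they read mainly the 3' ends of messages. The authors deposited log2 expression values per probe set (2.02 to 14.3). How probes were summarised and normalized, and the software, are not given in the sources used. Scanner files were not used here, so detection calls were not examined. Probe sets with several symbols were left out, 1 of them naming a listed enzyme. All 9 arrays entered 1 limma model of limma 3.58.1 under R 4.3.3, fitted by lmFit and moderated by eBayes with a trend on intensity and without a replicate term, with 3 contrasts, and p-values were adjusted by Benjamini-Hochberg over all tested genes or probe sets. The procedure was tested on simulated data, with 50 genes of each size changed in biomineralized insulin against medium. It recovered 46% of changes of 0.2 log2, 88% of 0.4 and 100% of 0.8 and 1.6. There were 13 false calls among the unchanged genes. In the simulation changes near 0.2 log2 were thus often missed. It changed far fewer genes than the 6230 called in that comparison on the real arrays, so these shares need not carry over. All listed enzymes are named, with up to 5 called genes per direction and comparison from the pathway list, the closest profiles, and relatives of the enzymes. The enzymes and lists were chosen with earlier results of these data known. Alternatives covered the replicate block, arrays in the fit, scaling, brightness limit, offset, probe set choice, variance model, array weights and leaving out each array. Same-numbered arrays did not deviate together. The number of arrays limits the precision. Figures used matplotlib 3.10.9.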

Additional observations from a re-analysis of the deposited data

Results flagged for a closer look

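The poly-A spike-in controls, 12 probe sets outside the comparisons of genes, averaged 7.80 ± 0.17 log2 in biomineralized insulin and 7.36 ± 0.08 in medium (SD, n = 3 each), a difference of 0.441. All 3 biomineralized insulin arrays lay above all 3 medium arrays (exact permutation test, two-sided p = 0.1, the smallest that 3 against 3 arrays allow). Against insulin the difference was 0.41 (exact p = 0.1).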

How the results depend on the processing

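In the comparisons of biomineralized insulin with medium and with insulin, 196 of 197 alternatives over the 9 tested enzymes kept direction and call in each. The exceptions were ALDH18A1 with spike-in centring, at -0.077 and -0.046. In insulin against medium 152 of 197 did, 27 lost the call, 5 gained it in the same direction and 13 turned direction, 2 of these (PSAT1) past the threshold. There 4 enzymes were called, with 0 under spike-in centring, 1 without the intensity trend and 1 to 4 when single arrays were left out. The count was 5 under quantile normalization, 5 without shared-target probe sets and 6 when each gene's most variable probe set stood for it. With the replicate number as a block, the counts of enzymes called were 4, 9 and 9, and it changed no enzyme's call. Among the named pathway genes it ended the call of CTH in insulin against medium (adjusted p = 0.055). Deviations of same-numbered arrays correlated at -0.23 to 0.17. The labels do not say what the numbers mark, and these correlations cannot show whether same-numbered arrays were handled together.

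Over all tested genes 300 were called in insulin against medium. The count was 152 when the fit held 6 arrays, 190 under median centring, 5 with spike-in centring, 122 with the mean of probe sets, 177 when each gene's most variable probe set stood for it, 199 without shared-target probe sets, 37 without the intensity trend, 604 with array weights and 57 to 425 without single arrays. Spike-in centring gave 9544 called genes in biomineralized insulin against medium (9347 lower and 197 higher, against 3090 and 3140) and 9607 against insulin (9483 lower and 124 higher, against 2854 and 2579). Of the 45 pathway genes, 7 were called in insulin against medium, with 0 under spike-in centring, 4 with the mean of probe sets, 3 with the largest variance, 1 without the trend, 11 with array weights and 3 to 8 without single arrays. Against insulin, 24 were called in biomineralized insulin, and 37 with spike-in centring.

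In insulin against medium, the ALDH18A1 value turned to 0.011 under quantile normalization and ran from -0.037 to 0.022 without single arrays. PSAT1 changed by -0.23 with the mean of probe sets (adjusted p = 0.055), -0.48 with the largest variance (adjusted p = 0.021) and -0.29 without shared-target probe sets (adjusted p = 0.0019), and from -0.017 to 0.13 without single arrays. With the probe set of largest variance PSPH changed by -0.051 and GLUD1 by 0.017. In biomineralized insulin with spike-in centring, OAT changed by -0.040 against medium, and MTFMT by -0.11 and PKM by -0.088 against insulin. PKM changed by -0.0016 against insulin without shared-target probe sets. The causes were not tested.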

Other observations

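Of the 62 other pathway genes listed, 7 had probe sets only below the brightness limit: MTHFD2L, GLDC, BHMT, PRODH2, ARG1, PCK1 and PKLR. Another 10 had no probe set with 1 gene symbol among those used here. GLDC, BHMT, ARG1, PCK1 and PKLR are enzymes that liver expresses strongly, but so are others of the list that passed the limit. Among these were ASS1, GPT and ALDH1L1, with means of 11.94, 5.56 and 4.84 log2 in medium, and GNMT, which was close to the limit. Of the 14 liver markers with a probe set, 9 were below the same limit. MTHFD2L, the second mitochondrial relative of MTHFD2, read 4.48, 4.58 and 4.64 log2 in medium, below the limit of 4.743. In biomineralized insulin it read 4.83, 4.89 and 4.737, the last also below the limit.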
